A study of Mus musculus with 10 samples.

Results

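Elastic fibre genes were followed in aortic tissue after an enzyme that digests elastin had been infused into the vessel, to ask whether they rose or fell. The genes were Eln, Fbn1, Fbn2, Fbln5, Efemp1, Efemp2, Mfap2, Mfap4, Mfap5 and Emilin1, chosen as elastin itself, the microfibril proteins around it and the proteins that assemble both, and they are 10 of the 35527 gene names on the array. All 10 genes had at least 1 probe well above background on at least 5 arrays and were among the 22520 names tested. The arrays hold 13 probes for them, 1 for each gene except Fbn2, Fbln5 and Mfap2, which have 2 each. Where a gene had more than 1 probe, the brighter one stood for it and the other is given beside it.

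The samples were the infrarenal aortas of 10-week-old male C57BL/6J mice on a normal diet. Every mouse had the infrarenal aorta tied off, opened at its bifurcation and filled through a catheter for 5 min at 100 mmHg. The 5 sham mice received saline, and the 5 PPE mice received saline with type I porcine pancreatic elastase at 1.5 U/mL, which starts an abdominal aortic aneurysm. The whole treated segment was taken 7 days after surgery, and RNA of 1 aorta, 500 ng and not pooled, was labelled with Cy5 and hybridized with a Cy3-labelled universal mouse reference on a 2-colour 60-base oligonucleotide array. The segment holds all layers of the vessel, and with bulk RNA fewer cells of a type and less RNA per cell cannot be told apart. Values are log2 ratios of aortic over reference signal after background correction and normalization within each array. Since each probe has its own reference level, they compare arrays for 1 gene and not genes with each other. The p-values measure the spread between 5 mice per group.

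An elastic fibre has a core of cross-linked elastin, laid down by smooth muscle cells and fibroblasts on a scaffold of fibrillin microfibrils. Tropoelastin, the soluble product of Eln, is brought to the microfibrils by fibulins and then cross-linked by lysyl oxidases, while microfibril-associated proteins and emilins sit along the microfibrils or where they meet elastin. In the aorta these fibres form concentric sheets, the elastic lamellae, which let the wall recoil after each heartbeat and which are made mostly in early life.

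The elastic fibre genes did not move as a group. Of the 10, 4 were higher in PPE than in sham aortas (Fbn2, Fbn1, Efemp1 and Efemp2), 1 was lower (Fbln5), and 5, among them Eln, did not pass the threshold, a limma p-value adjusted over all 22520 names under 0.01. Of all names tested, 13.9% were higher and 9.96% lower, so that 4 higher and 1 lower of 10 genes is a larger share of increases and about the same share of decreases as on the whole array. Fbn2 was above background on 3 of 5 sham and all 5 PPE arrays, so its PPE arrays alone met the filter of 5 arrays. Its call is therefore no support for the count, which leaves Fbn1, Efemp1 and Efemp2. For 5 of the 10 genes, Fbn2 among them, no PPE array fell inside the sham range, which held for 25.5% of all names. The median difference over the 10 genes was 0.52 on the log2 scale, against 0.02 over all names. When the arrays were instead centred on their medians with no normalization for signal, the median of all names itself moved to 0.41, 408 names were higher and 8 lower, and of the 10 genes Fbn2 alone still passed the threshold. There the differences of Fbn1, Efemp1 and Efemp2 were larger, at 1.94, 1.48 and 1.48, or 1.53, 1.07 and 1.08 above the shift of all names, with adjusted p-values of 0.154 to 0.188. Fbln5 was at -0.52, or -0.93 relative to the shift.

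**Figure D1:**
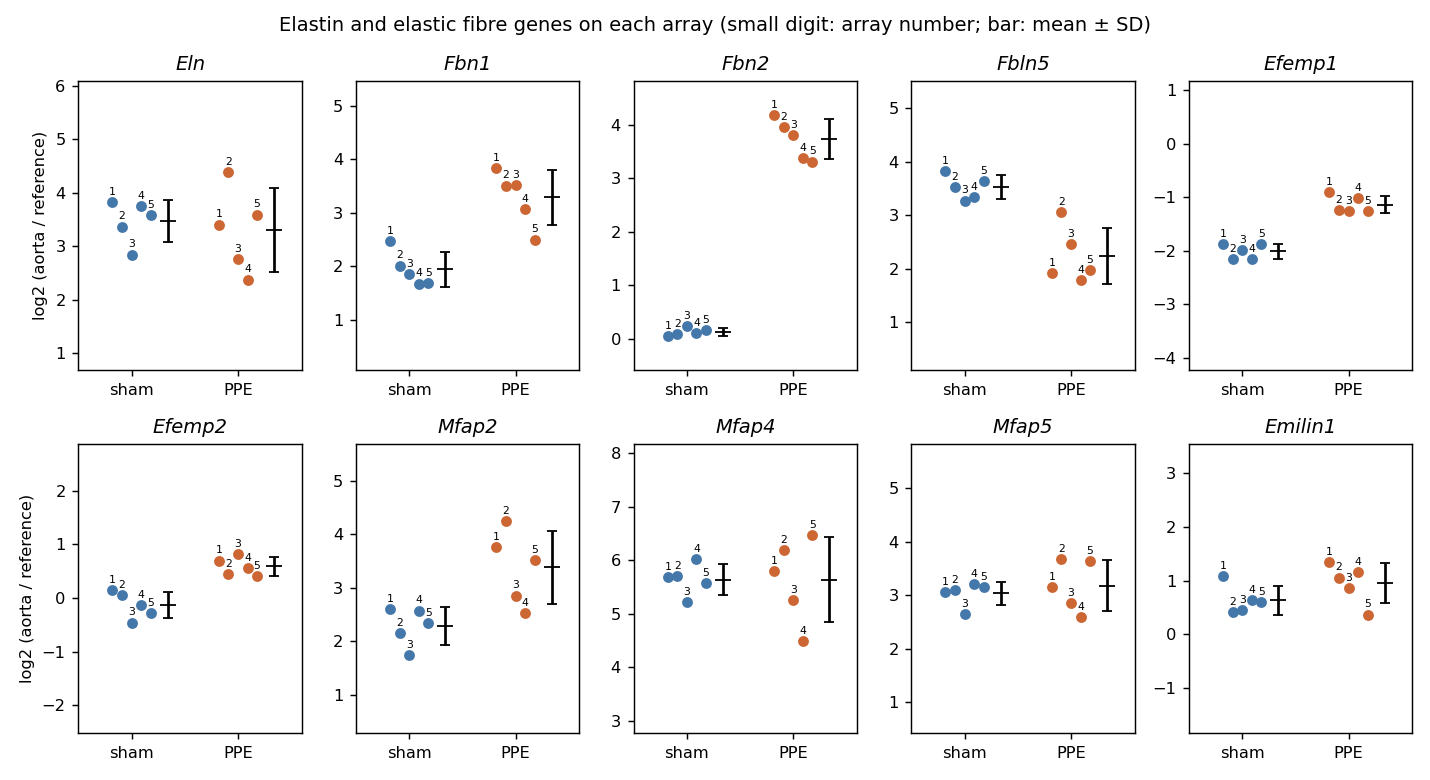
Log2 ratio of aortic over reference RNA for the 10 elastic fibre genes, 1 panel a gene, with 1 point for each of the 5 sham and 5 PPE arrays and the mean ± SD beside them; every vertical axis spans the same number of log2 units. Fbn2, Fbn1, Efemp1 and Efemp2 lay higher and Fbln5 lower on every PPE array than on every sham array, while the other 5 genes overlapped.

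Eln encodes tropoelastin, the protein that the infused enzyme cuts once it is cross-linked in the fibre. Its 1 probe lies at chr5:135179129-135179188 on the minus strand (mm9), and the first 30 of its 60 bases, shown because every Eln value below rests on this stretch, read as follows.

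Eln probe, first 30 bases: ataccggaagccttgacgatggatttggtg

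The log2 ratios of Eln were 3.83, 3.37, 2.85, 3.75 and 3.59 on sham arrays 1 to 5 and 3.40, 4.39, 2.76, 2.38 and 3.59 on PPE arrays 1 to 5. The sham values all lay within the range of the PPE values, whose highest (PPE 2) and lowest (PPE 4) were also the highest and lowest of all 10 arrays. The means were 3.48 ± 0.40 (SD, n = 5) in sham and 3.31 ± 0.78 (SD, n = 5) in PPE, a difference of -0.17 with a standard error of 0.34 and an adjusted p of 0.744 by limma. The 95% interval of this difference ran from -0.91 to 0.57, so a fall or a rise within these limits is compatible with the data. With the arrays centred on their medians the difference turned to 0.49, which was 0.08 above the shift of all names, and it stayed within -0.33 to 0.49 over all alternatives that kept every array. On the 2 slides that carried both groups, PPE minus sham was 0.07 (PPE 1 and 2 against sham 1 alone) and -0.54 (PPE 3 and 4 against sham 2 and 3). The differences within slides given for other genes below rest on these same few arrays.

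Fbn1 and Fbn2 encode the fibrillins, the large proteins that form the backbone of the microfibril. Fibrillin-1 is the main form of adult tissue, and fibrillin-2 is known chiefly from development. Fbn1 has 1 probe, at chr2:125126727-125126786 on the minus strand (mm9).

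Fbn1 probe, first 30 bases: tcacttatgagtatggtgcagtacatgtaa

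Fbn1 had log2 ratios of 2.46, 2.02, 1.86, 1.68 and 1.69 on the sham arrays and 3.84, 3.51, 3.51, 3.07 and 2.50 on the PPE arrays. PPE 5 was the lowest of its group and lay only just above sham 1, the highest of the other. Fbn1 rose by 1.35 (SE 0.24) on the log2 scale, which is 2.54-fold, with an adjusted p of 0.00115 by limma. The difference was 1.21 and 1.36 within the slides that held both groups.

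For Fbn2, the values were 0.05, 0.09, 0.24, 0.10 and 0.17 in sham and 4.18, 3.95, 3.81, 3.37 and 3.31 in PPE. The groups were far apart, and the probe was well above background on 3 of 5 sham arrays and on all 5 PPE arrays. Its PPE arrays alone met the filter of 5 arrays, so its call is no support for the count of higher genes. Fbn2 rose by 3.59 (SE 0.16), or 12.1-fold, with an adjusted p of 2.17e-07, the largest change of the 10 genes. Its size was above that of 99.6% of all names tested. The second Fbn2 probe failed the scanner's test against background on every sham array and passed it on every PPE array, so its change has a lower bound only and it entered the test through its PPE arrays alone. It was at least 6.29-fold higher in PPE (adjusted p of 6.29e-06 over all probes tested, limma), and this bound compares the red channel with the lowest signal that counts as above background. Over the alternatives that used the brighter probe, the difference ranged from 3.11 (median centring) to 4.01 (red channel alone). It passed the threshold in each of these that tested the gene. The second probe alone gave 2.67, and its pass is no support, since only its PPE arrays brought it into the test.

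Fbln5, Efemp1 and Efemp2 encode fibulin-5, fibulin-3 and fibulin-4, short fibulins that bind tropoelastin or the enzymes that cross-link it. Fibulin-4 and fibulin-5 are needed to build elastic fibres in mice. Fbln5 has 2 probes, at chr12:102988153-102988212 and chr12:102984878-102984937 on the minus strand (mm9), which start at positions 2394 and 5669 of the same transcript. Both are shown because only the brighter one passed the threshold.

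Fbln5 probe at transcript position 2394, first 30 bases: ttaagagtttttacccaactgtgttggaag
Fbln5 probe at transcript position 5669, first 30 bases: agacaaaactagaacatgacctcttttagt

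On the brighter probe, at position 2394, Fbln5 had log2 ratios of 3.83, 3.53, 3.28, 3.34 and 3.64 in sham and 1.93, 3.06, 2.46, 1.79 and 1.98 in PPE. All PPE arrays lay below all sham arrays, with PPE 2 closest to them. Fbln5 fell by 1.28 (SE 0.23), 2.43-fold, with an adjusted p of 0.00107 by limma, and the differences within the 2 mixed slides were -1.33 and -1.28. The probe at position 5669 ranged from 0.22 to 0.87 in sham and from 0.17 to 0.67 in PPE. It was well above background on 3 of 5 arrays in each group and differed by -0.07 (adjusted p of 0.77 over all probes tested). Since this probe lay near background in both groups, the size of a change that could appear on it is limited. With the mean of both probes in place of the brighter one the difference was -0.68 and its adjusted p of 0.0127 missed the threshold, so the call of Fbln5 rests on 1 probe.

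Efemp1 had log2 ratios of -1.87, -2.15, -1.98, -2.15 and -1.87 on the sham arrays and -0.91, -1.24, -1.26, -1.01 and -1.26 on the PPE arrays. The arrays of each group lay close together and the groups were clearly apart. Efemp1 rose by 0.87 (SE 0.11), or 1.83-fold, with an adjusted p of 0.000125 by limma.

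Efemp2 had values of 0.14, 0.05, -0.46, -0.13 and -0.28 in sham and 0.70, 0.45, 0.82, 0.56 and 0.41 in PPE. Sham 1 was the highest sham array and stayed below PPE 5, the lowest of the PPE arrays. Efemp2 rose by 0.72 (SE 0.14), or 1.65-fold, with an adjusted p of 0.00161. The call was lost when the slide was added as a fixed block, with a difference of 0.71 and an adjusted p of 0.0165, and the differences within the 2 mixed slides were 0.43 and 0.90.

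The RefSeq table of promoters (GRCm38.p6) held windows for 6 of the 10 genes, among them 4 of the 5 called genes, the higher Fbn1, Efemp1 and Efemp2 and the lower Fbln5. These are shown so that the increases and the decrease can be set side by side. Each runs 5′ to 3′ over the 250 bases before the annotated start, at chr2:125506439-125506688 on the minus strand for Fbn1, chr11:28852955-28853204 on the plus strand for Efemp1, chr19:5473696-5473945 on the plus strand for the most upstream of 3 Efemp2 starts and chr12:101819120-101819369 on the minus strand for the more upstream of 2 Fbln5 starts. Capitals mark the AP-1 motif TGANTCA and the GC box GGGCGG, searched on both strands.

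Fbn1 promoter: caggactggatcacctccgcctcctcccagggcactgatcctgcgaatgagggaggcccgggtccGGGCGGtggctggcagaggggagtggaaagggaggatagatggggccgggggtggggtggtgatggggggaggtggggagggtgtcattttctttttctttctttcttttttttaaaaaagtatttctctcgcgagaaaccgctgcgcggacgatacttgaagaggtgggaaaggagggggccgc
Efemp1 promoter: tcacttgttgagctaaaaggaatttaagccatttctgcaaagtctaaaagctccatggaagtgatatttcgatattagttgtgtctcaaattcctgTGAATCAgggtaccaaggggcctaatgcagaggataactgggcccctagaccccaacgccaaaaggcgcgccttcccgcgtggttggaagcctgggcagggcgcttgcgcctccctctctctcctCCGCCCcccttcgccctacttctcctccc
Efemp2 promoter: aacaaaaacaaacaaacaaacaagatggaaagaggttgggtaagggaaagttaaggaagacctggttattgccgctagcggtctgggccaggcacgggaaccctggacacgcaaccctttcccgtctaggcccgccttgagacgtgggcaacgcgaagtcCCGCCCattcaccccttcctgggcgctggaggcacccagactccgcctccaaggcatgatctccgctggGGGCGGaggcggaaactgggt
Fbln5 promoter: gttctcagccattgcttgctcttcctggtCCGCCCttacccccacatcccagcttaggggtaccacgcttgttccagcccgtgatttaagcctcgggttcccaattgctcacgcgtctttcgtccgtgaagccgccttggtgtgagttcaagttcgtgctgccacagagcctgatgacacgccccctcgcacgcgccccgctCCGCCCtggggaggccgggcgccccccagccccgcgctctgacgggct

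The Efemp1 window held 1 AP-1 match and 1 GC box, the Fbn1 window 1 GC box, the Efemp2 window 2 GC boxes and the Fbln5 window 2 GC boxes. The other windows differed, with 5 GC boxes at each of the 2 further Efemp2 starts, whose windows overlap, and 0 at the second Fbln5 start. Of all 32851 windows of this length, 6.75% held the AP-1 motif and 32.7% the GC box. The TATA box TATAAA, present in 12.4% of all windows, and the CArG box of smooth muscle genes, present in 1.47%, were found in none of the 7 windows of these 4 genes. These are matches of letters only, and binding was not measured here.

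Mfap2, Mfap4 and Mfap5 encode microfibril-associated proteins. MAGP-1 and MAGP-2, the products of Mfap2 and Mfap5, bind fibrillin directly, and Mfap4 encodes a fibrinogen-domain protein that binds elastin and fibrillin microfibrils. The probes of Mfap2 lie at chr4:140571828-140571887 and chr4:140570920-140570979 on the plus strand (mm9), starting at positions 1008 and 432 of the transcript. The start of the first and all 60 bases of the second, which hold no stop codon in 2 of 3 reading frames, are shown.

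Mfap2 probe at transcript position 1008, first 30 bases: cctacgcccccaggcatggaccacctctgt
Mfap2 probe at transcript position 432: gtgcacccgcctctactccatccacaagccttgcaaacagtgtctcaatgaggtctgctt

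On the probe at position 1008, Mfap2 had log2 ratios of 2.60, 2.16, 1.74, 2.57 and 2.34 in sham and 3.76, 4.24, 2.85, 2.53 and 3.51 in PPE. One PPE array, PPE 4, lay among the sham arrays and the other 4 above them. The difference was 1.10 (SE 0.30), with a 95% interval from 0.43 to 1.76, and its adjusted p of 0.0144 missed the threshold in limma. Without PPE 4 the difference was 1.31 with an adjusted p of 0.00419. The probe at position 432 gave 1.04 with groups that did not overlap and an adjusted p of 0.0079 when it stood for the gene. The difference also passed with the slide as a fixed block (1.0, adjusted p of 0.00744) and in the red channel alone (1.86, adjusted p of 0.000118). Of 15 alternatives that kept every array, it passed in 6 and missed in 9. The misses included the LogRatio (0.87, adjusted p of 0.032 by limma) and median centring (1.58, adjusted p of 0.228). Another was a scaling of average signal between arrays, which leaves log2 ratios unchanged, so this miss was fixed in advance. The series matrix, also a miss, nearly repeats the LogRatio. Leaving out any single array other than PPE 4 did not bring it past the threshold.

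Mfap5 had values of 3.06, 3.09, 2.64, 3.21 and 3.15 in sham and 3.15, 3.67, 2.85, 2.58 and 3.64 in PPE. The groups overlapped, and the difference was 0.15 (SE 0.21) with an interval from -0.32 to 0.62 and an adjusted p of 0.646. For Mfap4 the values were 5.68, 5.70, 5.22, 6.02 and 5.57 in sham and 5.79, 6.19, 5.25, 4.48 and 6.46 in PPE. Its mean was 5.64 in both groups, while the SD was 0.29 in sham and 0.79 in PPE. The difference of Mfap4, -0.0013 with an interval from -0.72 to 0.71 and an adjusted p of 0.998, became 0.68 with the arrays centred on their medians, or 0.27 above the shift of all names.

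Emilin1 encodes an elastin microfibril interface protein, which lies between the elastin core and the microfibrils. Its probe covers chr5:31222545-31223001 on the plus strand (mm9), a span of 457 bases for 60 bases of probe, so it bridges a gap in the genome. It is shown whole because it is the only one of the 13 probes that does so.

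Emilin1 probe: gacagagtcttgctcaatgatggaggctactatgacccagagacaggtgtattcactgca

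Emilin1 had log2 ratios of 1.09, 0.41, 0.45, 0.64 and 0.60 in sham and 1.34, 1.06, 0.86, 1.16 and 0.37 in PPE. PPE 5 was the lowest of all 10 arrays, and sham 1 lay among the PPE arrays. The difference of 0.32 (SE 0.19) had an interval from -0.10 to 0.74 and an adjusted p of 0.225.

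**Figure D2:**
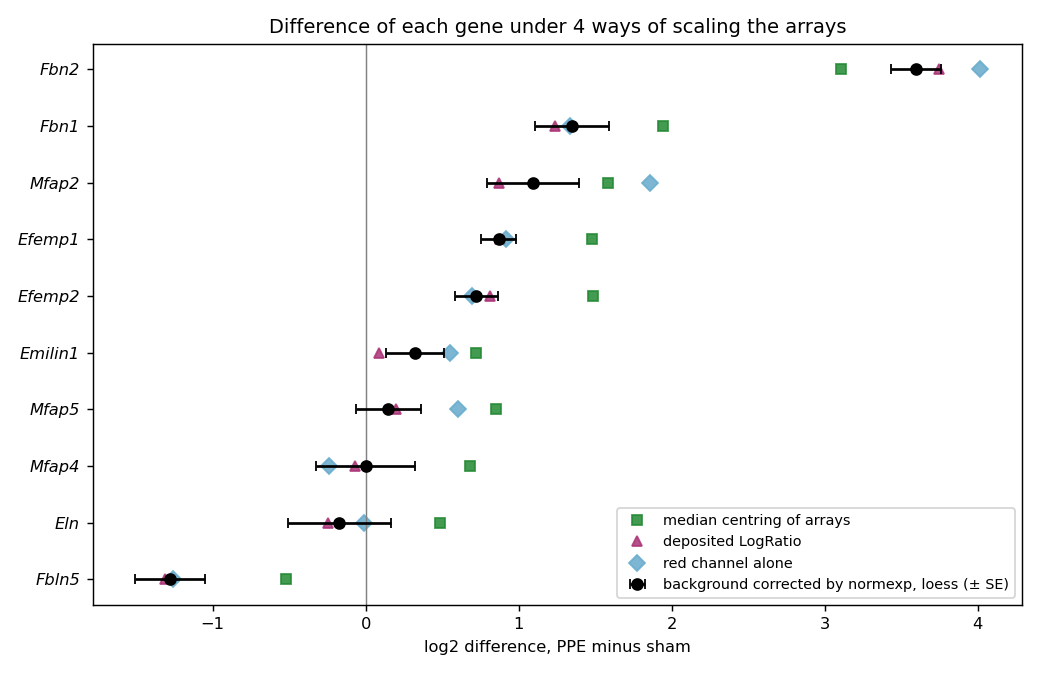
Log2 difference, PPE minus sham (n = 5 and 5 arrays), for each of the 10 genes, with the standard error for the normalization by loess and single symbols for 3 other ways of scaling. Fbn2 lay farthest to the right at 3.59 and Fbln5 farthest to the left at -1.28; centring the arrays on their medians turned Eln from -0.17 to 0.49 and Mfap4 from -0.0013 to 0.68, both not past the threshold.

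Whether related genes changed unequally was tested on the difference of 2 genes within each array, since a shift of a whole array cancels in it. Of 9 pairs compared by exact two-sided permutation over the 252 ways to assign the arrays, 6 differed between the groups at a p adjusted over the 9 pairs under 0.05. The smallest unadjusted p this design allows is 0.00794, which 4 of the pairs reached. For the 2 pairs of Fbln5 with Efemp2 and Efemp1 this was fixed by the single-gene values and is no further support.

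The fibrillins moved apart. Fbn1 minus Fbn2 was 2.41, 1.92, 1.62, 1.58 and 1.53 on the sham arrays and -0.33, -0.44, -0.30, -0.30 and -0.81 on the PPE arrays. The 2 sets did not overlap, and the within-array difference fell by 2.25 (SE 0.19, adjusted exact p = 0.0179). Since Fbn2 was near background in sham, the background there limits how large this change could appear. With the arrays centred on their medians it was -1.17 and its adjusted exact p of 0.0833 missed the threshold.

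Among the fibulins, Fbln5 fell against both relatives. Fbln5 minus Efemp2 ranged from 3.47 to 3.92 in sham and from 1.22 to 2.62 in PPE, a change of -2.0 (SE 0.27), and Fbln5 minus Efemp1 ranged from 5.26 to 5.70 and from 2.80 to 4.31, a change of -2.15 (SE 0.30). Both had an adjusted exact p of 0.0179, and both use the brighter Fbln5 probe. All PPE arrays lay below all sham arrays for Fbln5 and above them for Efemp1 and Efemp2. The 2 differences therefore could not overlap, and their p-values add nothing to the single-gene results. Efemp1 and Efemp2 were not shown to differ in their change, with a difference of 0.15 (SE 0.16) and an adjusted exact p of 0.452, which turned to -0.0047 with median centring.

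Mfap2 rose relative to Mfap5 by 0.95 (SE 0.18, adjusted exact p = 0.0179). Mfap2 minus Mfap5 ran from -0.93 to -0.46 in sham and from -0.13 to 0.61 in PPE, so that the groups did not overlap.

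Eln was set against 4 other genes. Eln minus Fbn1 went from 1.53 ± 0.44 (SD) in sham to 0.02 ± 0.90 in PPE, with an adjusted exact p of 0.0238 and 1 PPE array (PPE 5) inside the sham range. Eln minus Fbln5 went from -0.05 ± 0.30 to 1.06 ± 0.58, also at 0.0238, with PPE 3 inside the sham range. Leaving out sham 1, 2, 4 or 5 put the adjusted exact p of the first at 0.0595 with changes of -1.56 to -1.38, and leaving out sham 1, 2, 3 or 5 put that of the second at 0.0571 to 0.0595 with changes of 1.01 to 1.12. Eln minus Mfap4 changed by -0.17 (SE 0.21) and Eln minus Emilin1 by -0.49 (SE 0.43), with adjusted exact p-values of 0.452 and 0.367.

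**Figure D3:**
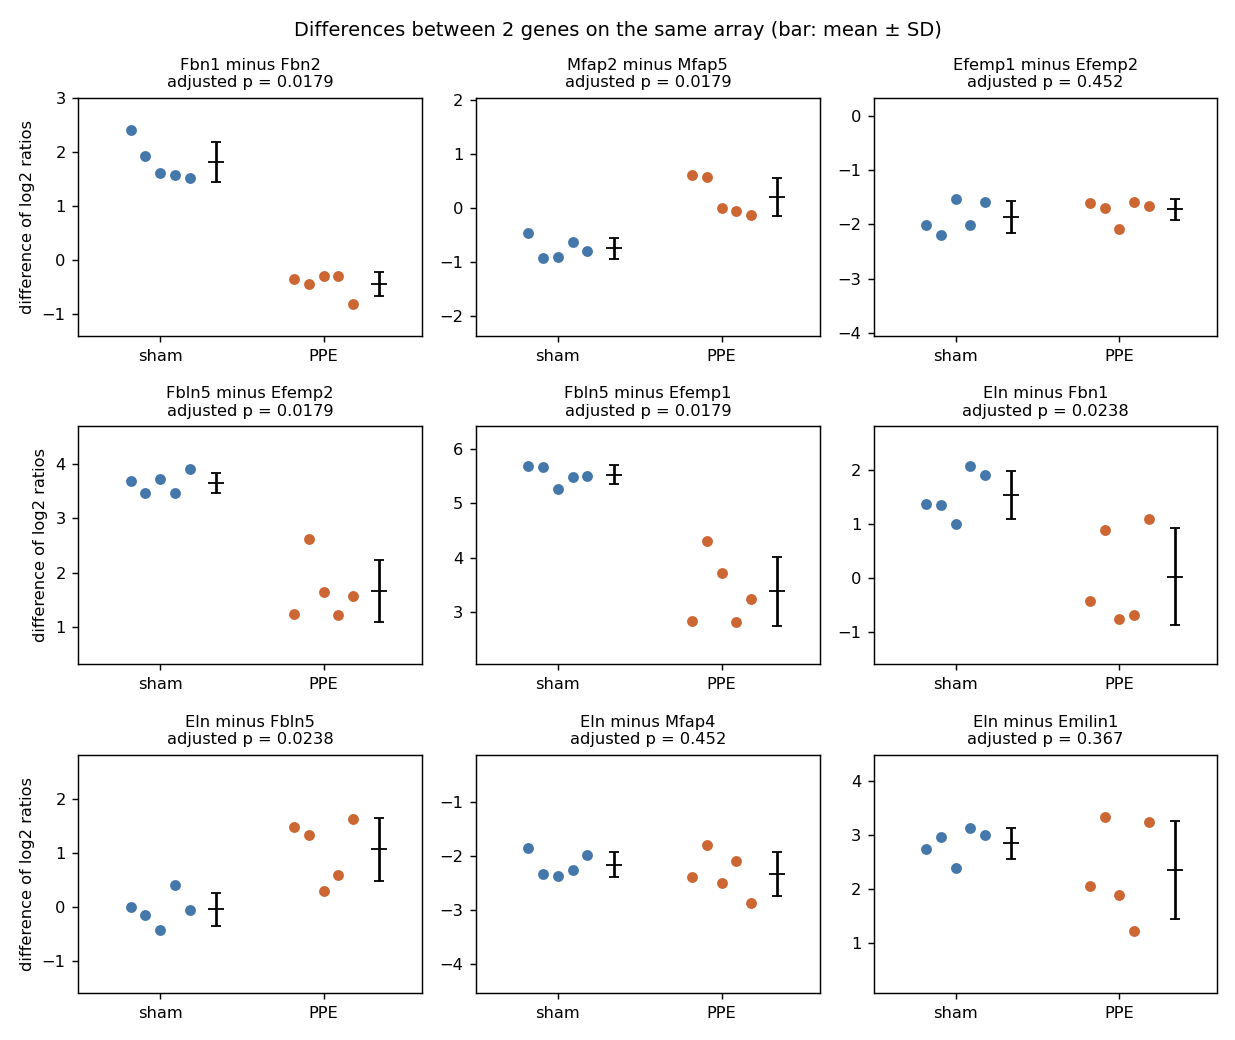
Difference of log2 ratios between 2 genes on the same array for 9 pairs, with 1 point for each of 5 sham and 5 PPE arrays, the mean ± SD beside them and the exact permutation p adjusted over the 9 pairs in each title. Fbn1 minus Fbn2, Mfap2 minus Mfap5 and the 2 pairs of Fbln5 with Efemp2 and Efemp1 show groups that do not overlap.

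Within each group, several of the genes were high or low on the same arrays. Sham 3 had the lowest sham value of Eln, Mfap2, Mfap4, Mfap5 and Fbln5, and PPE 4 had the lowest PPE value of the same 5 genes. PPE 2 had the highest PPE value of Eln, Mfap2, Mfap5 and Fbln5. Over all 10 arrays, and after subtracting each gene's mean, Mfap4 and Mfap5 were the nearest to Eln of the 8 other genes compared (Fbn2 was not compared), with root mean square differences of 0.31 and 0.32 and ranks of 46 and 56 among 10638 gene symbols above background on all 10 arrays. Fbn1, at 0.99, was far from it. The 5 symbols nearest to Eln were Sult1a1, Cygb, Plxdc2, Sulf1 and Mcpt4, at 0.11 to 0.19 over 10 arrays, and none of them passed the threshold between groups. Arrays share slides, amounts of RNA and the mix of cells in the segment, so likeness of profile is given as a description.

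**Figure D4:**
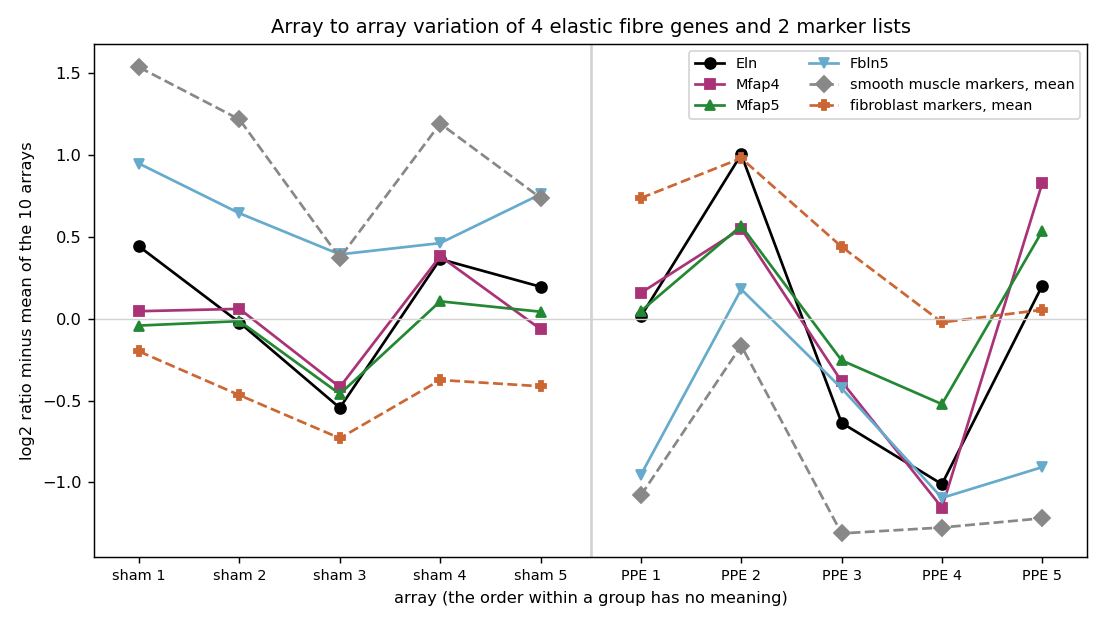
Log2 ratios minus their mean over the 10 arrays for Eln, Mfap4, Mfap5 and Fbln5 (solid lines) and for the means of 12 smooth muscle and 9 fibroblast markers (dashed lines), by array. Eln, Mfap4 and Mfap5 dipped on sham 3 and PPE 4 and had similar means in the 2 groups, while the smooth muscle mean was lower on every PPE array than on every sham array.

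The tissue carried its defining markers: 11 of 12 smooth muscle, all 9 fibroblast and all 8 endothelial genes were above background on all 10 arrays. Of the cells that lay down elastic fibres, smooth muscle had a lower marker mean in PPE and fibroblasts a higher one. The mean log2 ratio of the smooth muscle markers ran from 3.43 to 4.60 in sham and from 1.75 to 2.90 in PPE, and 10 of the 12 were lower, among them Acta2 (smooth muscle actin, -2.49) and Tagln (transgelin, -2.95). The fibroblast mean ran from 2.47 to 3.0 in sham and from 3.18 to 4.18 in PPE. Of its 9 genes, 4 were higher, led by the collagen genes Col1a1 (2.04) and Col3a1 (1.95). The other 5, Dcn (-0.24), Dpt (-0.0028), Tcf21 (0.40), Pdgfrb (0.65) and Lum (1.22), did not pass. Eln, made by both cell types, differed by -0.17 beside a difference of -2.02 in the smooth muscle mean and 0.87 in the fibroblast mean. Markers of infiltrating cells also differed, with ranges of 0.60 to 1.01 and 2.56 to 3.63 for 9 macrophage genes and of 0.55 to 0.67 and 3.04 to 4.38 for 7 neutrophil genes, in sham and PPE in that order. Mertk (-0.30) and Itgam (0.44) of the macrophage list and Csf3r (-0.07) of the neutrophil list did not pass. Only 3 of the 7 neutrophil genes were above background on all 5 sham arrays. Camp, Cxcr2, Mmp8 and Retnlg met the filter through their PPE arrays alone, so background limits their sham values. The mean of 8 endothelial genes ran from 2.45 to 3.45 and from 2.55 to 3.63, and that of 7 skeletal muscle genes from 1.08 to 4.34 and from 1.0 to 4.26. Of the other lists, 2 of 8 adipocyte genes were lower and 1 of 5 mesothelial genes, Wt1, was higher. Wt1 was above background on 3 of 5 sham and all 5 PPE arrays. Its PPE arrays alone met the filter, so its call is no support for that count. Beside the counts of each of these lists, 13.9% of all names were higher and 9.96% lower. The part of these shifts in the elastic fibre genes was not tested.

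Further genes of the fibre were counted in a list of 22, all of them tested. Of these, 7 were higher in PPE, 5 were lower and 10 did not pass, against 13.9% higher and 9.96% lower of all names, and the median difference was -0.09, below 0 where that of the 10 genes was above it. The 2 lists were not tested against each other. Lox, the lysyl oxidase that cross-links elastin and collagen, rose by 2.08 (SE 0.18), and Ltbp2, a fibrillin-like microfibril protein, by 2.07 (SE 0.17). Adamts17, a protease of the matrix, and Emilin2, a relative of Emilin1, rose by 1.70 and 1.65. Adamts17 was above background on 4 of 5 sham and all 5 PPE arrays, so its PPE arrays alone met the filter. Its call is no support for the count of higher genes. The lower genes included 2 latent TGF-beta binding proteins, Ltbp1 at -2.40 (SE 0.28) and Ltbp4 at -1.68 (SE 0.19), with Ltbp4 known as a partner of fibulin-5 in elastic fibre assembly. Fbln7 was at -2.08, and Thsd4, which encodes an ADAMTS-like protein that promotes fibrillin-1 microfibrils, was at -2.23. Thsd4 was well above background on all 5 sham but only 2 PPE arrays, so the background limits the size of its change. Its sham arrays alone met the filter, so its call is no support for the count of lower genes. With the LogRatio it missed the threshold (-2.62, adjusted p of 0.0109 by limma).

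Enzymes able to break down elastin were higher wherever they passed the threshold. Of 9 tested, 5 rose and 4 did not pass, with differences from 0.48 to 5.12 and a median of 1.05. Of all names, 13.9% were higher and 9.96% lower, with a median of 0.02. Ctss, the elastinolytic cathepsin S of macrophages, rose by 5.12 (SE 0.32, adjusted p of 8.55e-07). Mmp12, macrophage elastase, stayed within background on every sham array and was at least 4.29-fold higher in PPE. It entered the test only through its PPE arrays, so its call (adjusted p of 0.000718) is no support for the count, which was 4 among genes above background on all 10 arrays. Mmp9 and Mmp2, the gelatinases, rose by 1.85 and 1.05, and Mmp9 missed the threshold without sham 2 (1.80, adjusted p of 0.0109) or without sham 4 (1.79, adjusted p of 0.0115). Elane, neutrophil elastase, differed by 0.59 with an adjusted p of 0.0905.

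Inhibitors of these enzymes moved both ways, 2 of 6 higher and 3 lower, with a median of -0.97. The shares over all names were 13.9% higher and 9.96% lower. Timp1 rose by 3.46 (SE 0.27), while Timp3, the inhibitor bound to the matrix, fell by 1.18 (SE 0.16), Timp4 by 2.16 (SE 0.42) and Cst3, the cathepsin inhibitor cystatin C, by 1.06 (SE 0.14). Slpi, an inhibitor of neutrophil elastase, rose by 2.03 (SE 0.49, adjusted p of 0.00673), but it missed the threshold, at 1.75 to 2.11 and adjusted p-values of 0.0137 to 0.0189, without PPE 1, 3 or 4 or without sham 1, 2, 3 or 4. The 3 genes of the elastin receptor complex, through which cells sense elastin peptides and which helps tropoelastin reach the surface, were all higher, against 13.9% of all names. Neu1 rose by 1.03 (SE 0.16), Glb1 by 0.81 (SE 0.16) and Ctsa by 0.69 (SE 0.11). Ctsa missed the threshold in the red channel alone (0.31, adjusted p of 0.107), and its second probe differed by 0.36 with an adjusted p of 0.0121 over all probes tested.

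**Figure D5:**
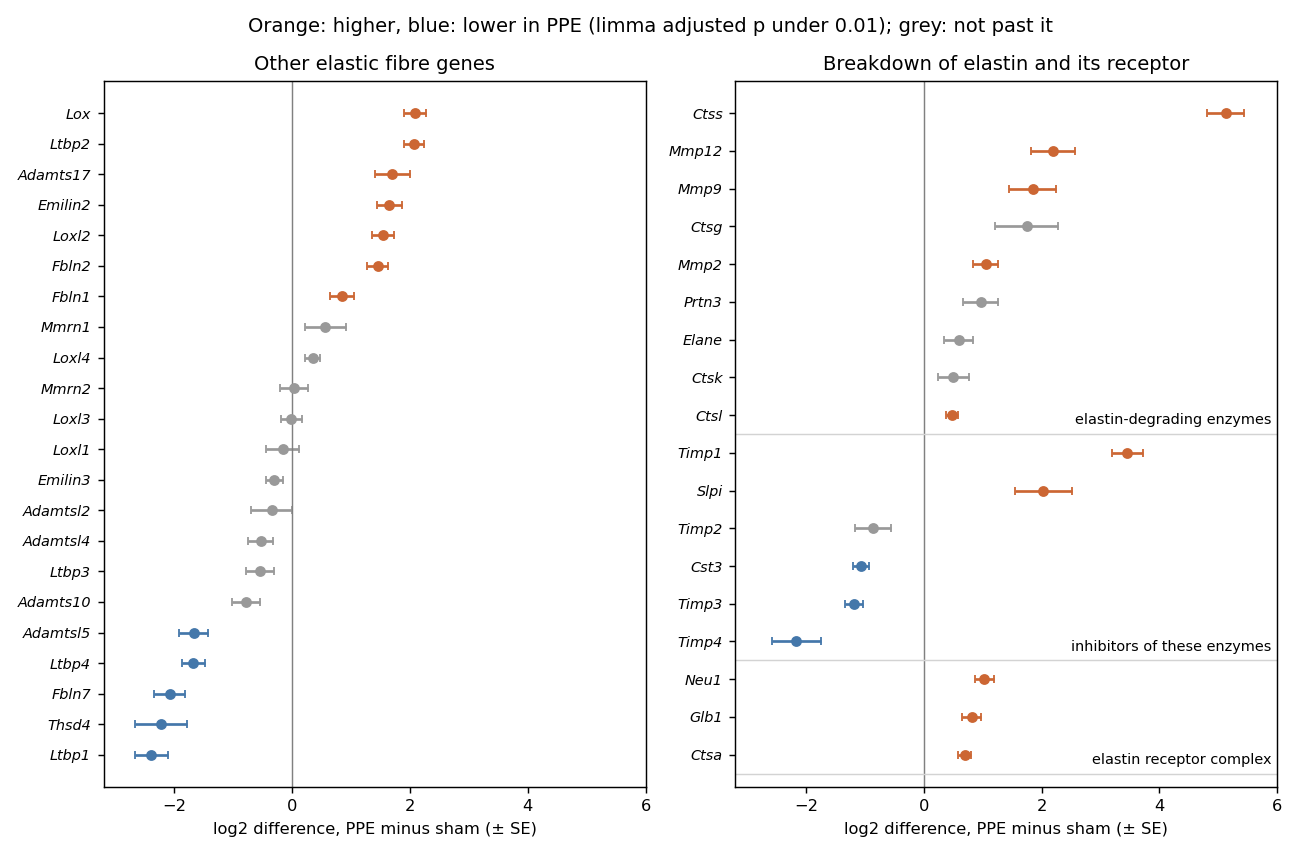
Log2 difference, PPE minus sham, with its standard error (n = 5 and 5 arrays) for 22 further elastic fibre genes (left) and for 9 elastin-degrading enzymes, 6 inhibitors and 3 genes of the elastin receptor complex (right), coloured by limma call at an adjusted p under 0.01. The fibre genes spread from -2.40 (Ltbp1) to 2.08 (Lox), and the degrading enzymes reached 5.12 (Ctss); Mmp12 is drawn at its fitted value although its sham arrays were below background.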

How the data were processed

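Gene expression was measured on 10 2-colour arrays, 5 sham and 5 PPE, with aortic RNA in the red and the common reference in the green channel and no dye swap. The sample labels gave the groups. The authors left out arrays of poor hybridization or that stood apart in clustering, as the methods state. The deposited signal and background of each spot are in linear intensity units, extracted by the authors with Agilent Feature Extraction 10.7.3.1. The deposited LogRatio gives red over green on the log10 scale, and the authors' series matrix holds log2 ratios that equalled log2 of processed red over green on 100% of spots (tolerance 1e-04).

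In R 4.3.3 with limma 3.58.1, normexp with an added offset of 50 was applied to the mean spot signal, which understates changes of dim probes such as Fbn2 in sham, followed by loess within arrays. Control spots and 176 to 331 outlier spots per array were left out, and spots of a probe were averaged. On the arrays, 37.6% to 65.8% of spots were well above background in red. A probe was tested if above background on at least 5 of 10 arrays, and the brightest tested probe stood for a gene. Groups were compared with lmFit and eBayes, unpaired and two-sided, with Benjamini-Hochberg adjustment over 22520 names and a threshold of 0.01. Differences within arrays were compared by exact permutation. The limma and SAM fits were tested on simulated gene values, and the permutation p on a case with a known answer. Background correction, loess and the filter were not tested in this way. Alternatives were SAM (100 drawn relabellings), median centring, the LogRatio, the series matrix, the red channel, other offsets and filters, the mean of probes, blocks for slide, scan day and replicate, and leaving out each array. A scaling of average signal between arrays (Aquantile) was also run. It leaves log2 ratios unchanged, so its agreement was fixed in advance.

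Genes and lists were chosen with earlier results of these data known. Named were the 10 genes with all probes, up to 4 called genes of each further list with the largest difference in each direction, the 3 receptor genes, the 5 profiles nearest to Eln and up to 2 markers per cell list. Probe positions are those of the files, on mm9. The RefSeq tables (GRCm38.p6) were used for names and promoters, and no annotation of exons on mm9 was used here.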

Additional observations from a re-analysis of the deposited data

Results flagged for a closer look

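Within groups of 5 arrays, 60 sets of values (13 probes, 9 within-array differences and 8 marker lists, each in 2 groups) were searched for 1 array far from the other 4, and 4 sets held one, while chance alone would pick out about 5% of sets. Mfap5 was lowest on sham 3 at 2.64, with the next array at 3.06. Fbn1 minus Fbn2 was lowest on PPE 5 at -0.81, with the next at -0.44. Efemp1 minus Efemp2 was lowest on PPE 3 at -2.08, with the next at -1.69. The mean of the smooth muscle markers was highest within PPE on array 2, at 2.90 with the next at 1.98, and Eln, Mfap2, Mfap5 and Fbln5 had their highest PPE values on the same array.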

How the results depend on the processing

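Centring the arrays on their medians changed most. It left 1 of the 10 elastic fibre genes higher and 0 lower, 0 higher and 0 lower of the 22 further fibre genes, 1 degrading enzyme higher, 1 inhibitor higher and 0 lower, and 0 of the receptor complex. There Eln was 0.49, Mfap4 0.68, Efemp1 minus Efemp2 -0.0047 and Fbn1 minus Fbn2 -1.17 (adjusted exact p = 0.0833). The cause was not tested. With the mean of probes, 0 of the 10 genes were lower, and without a filter on dim probes 1 inhibitor was higher. The other alternatives gave 3 to 5 of the 10 genes higher, where 3 is by construction, since Fbn2 fails a filter on all 10 arrays. Fbn2 was called under each alternative that tested its brighter probe, and its sham arrays near background limit the size of its change.

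Without 1 array in turn, Eln ranged from -0.44 to 0.0594 (turned without PPE 4), Mfap4 from -0.21 to 0.29, Eln minus Fbln5 from 0.97 to 1.30, Eln minus Fbn1 from -1.79 to -1.32 and the count of higher inhibitors from 1 to 2.

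Replicate numbers did not pair the samples: the deviations of same-numbered arrays correlated at 0.29, -0.30, 0.16, -0.14 and 0.52, and only number 5 was the best match from both sides. With a replicate block, 3024 names were higher and 2281 lower, 4 of the 10 genes were higher and 1 lower, and 1 inhibitor was higher.

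Of the differences for single genes and pairs, over all alternatives, 763 kept their direction and their side of the threshold, 48 lost a call, 7 gained one and 9 turned direction. Of the list counts, 222 stayed within 1.5 times of the value in the report and 18 fell below that. Both tallies hold the Aquantile scaling, whose agreement was fixed in advance, and the series matrix, which nearly repeats the LogRatio. For genes with a single tested probe, the mean of probes also left the difference unchanged.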
